A study of Mus musculus and Homo sapiens with 10 samples.

Results

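In mouse embryonic stem cells, 4000 regions on the numbered chromosomes were enriched for H3K122ac and for H3K27ac over exactly the same stretch of DNA, and these are the regions described here. Each is an island, a run of enriched 200 bp windows, whose chromosome, start and end were identical in the H3K122ac list and the H3K27ac list. They were 4.42% of the 90442 H3K122ac islands and 3.32% of the 120421 H3K27ac islands on these chromosomes, out of 92957 and 122097 in all. Because the ends match, reads of both marks were counted over the same base pairs and against the same background count, so differing borders do not enter the counts. Which islands have matching ends still depends on the gap allowed in calling, 200 bp for H3K27ac and 600 bp for H3K122ac. The islands were chosen by where both marks were called, so the read counts below describe them and no test is attached.

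The cells were undifferentiated 46c (sox1-GFP) mouse embryonic stem cells, a line that carries a green fluorescent reporter of the neural gene Sox1. They were grown without feeders in serum with Lif at passages 25 to 28, so both groups share the genotype and the culture conditions and differ in the antibody. Chromatin was cut with micrococcal nuclease (MNase) and pulled down with an antibody to H3K122ac (2 libraries) or to H3K27ac (2 libraries). The authors called islands on the 2 libraries of a mark together, so each mark has 1 value per island and the spread between cultures cannot be given.

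The lysine of H3K122ac lies in the globular domain of histone H3, on the lateral surface of the nucleosome where the DNA is gripped most tightly, while that of H3K27ac lies in the flexible tail that extends out of the particle. Both residues are acetylated by the coactivators p300 and CBP. H3K27ac is the mark most often used to find active enhancers and promoters, and acetylation of the lateral surface is known to loosen the contact between histones and DNA. Acetylation of a further globular-domain lysine near the DNA, H3K64ac, was mapped in the same cells and provides a readout that did not enter the choice of islands.

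The H3K122ac list held 44320255 reads inside islands and the H3K27ac list 40473895. For each island the reads of a mark were divided by the reads in all islands of its list, and the share ratio is the H3K122ac share over the H3K27ac share, given as log2. A value of 0 means that the island took an equal share of both lists, a positive value that H3K122ac took the larger share, and a negative value that H3K27ac did. The identical islands were short, with a median of 1000 bp (lowest 200, highest 11800), against medians of 1800 bp over all H3K122ac islands and 1200 bp over all H3K27ac islands. They held a median of 154 H3K122ac reads (39 to 3317), 218 H3K27ac reads (56 to 2510) and 60 background reads (0 to 903). On the numbered chromosomes they took 2.42% of the H3K122ac reads in islands and 2.31% of the base pairs of that list, and 2.91% of the H3K27ac reads and 2.77% of the base pairs. The share of reads was thus close to the share of base pairs in each list.

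The identical islands took a smaller share of the H3K122ac list than of the H3K27ac list at most positions. The median log2 share ratio was -0.60 (95% interval of the median from order statistics -0.63 to -0.57), an H3K122ac share 0.659 times the H3K27ac share. The middle 80% of islands lay between -1.17 and 0.27, and the extremes were -1.83 and 1.28. The H3K27ac share was larger on 3288 islands (82.2%) and the H3K122ac share on 712 (17.8%). The H3K27ac share was at least 2-fold larger on 787 islands (19.7%; Wilson 95% interval 18.5 to 20.9%), and the H3K122ac share on 18 (0.45%; 0.285 to 0.710%). Over all 37854 pairs of islands that met each other and no other island, with reads per kb in place of reads, these percentages were 21.6% and 0.357%. The counts on identical islands therefore lie close to those over all such pairs.

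The side on which an island falls depends on the scaling. Divided by the authors' library ratio to background, 0.913 for H3K122ac and 2.19 for H3K27ac, the median turned positive, at a log2 value of 0.79, and H3K122ac was the higher mark on 3905 of 4000 islands (97.6%). With this scaling 36.3% of islands were at least 2-fold higher in H3K122ac and none of the 4000 was 2-fold higher in H3K27ac. This scaling moves every island by the same 1.39 on the log2 scale and so keeps their order, since relative to library size the H3K122ac list held 2.62 times as many reads in islands as the H3K27ac list. Statements below on higher and lower ratios are therefore relative to the other identical islands.

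**Figure D1:**
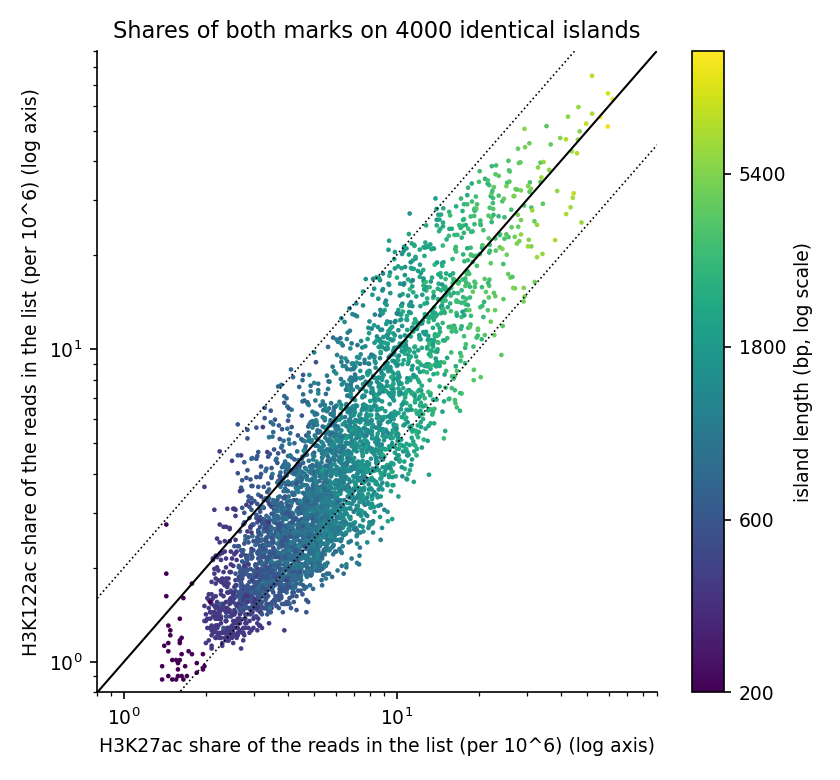
Share of the reads in the list, counted per 1000000 reads, for H3K27ac (horizontal, log axis) and H3K122ac (vertical, log axis) on 4000 identical islands, 1 point per island, coloured by length. The solid line marks equal shares and the dotted lines 2-fold differences; most points lie below the solid line (3288 islands), and the long islands at the upper right lie close to it.

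The spread between islands was larger than counting error. The SD of the log2 share ratio was 0.55 over the 4000 islands, and the median standard error expected from read counting alone was 0.15, so the spread was 3.60 times that error. With an exact 95% binomial interval for each island, which covers counting error only, 1302 islands lay above the members' median, 937 lay below it and 1761 could not be told apart from it. Relative to equal shares, the interval lay below 0 on 2765 islands, above 0 on 439, and held 0 on 796. Variation between cultures is not in these intervals.

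Read density varied more between islands for H3K122ac than for H3K27ac. H3K122ac read density had a median of 155 reads per kb and spanned 99 to 313 reads per kb from the 10th to the 90th percentile, a range of 3.16-fold. H3K27ac read density had a median of 215 reads per kb and spanned 172 to 279 reads per kb, a range of 1.62-fold. After subtraction of scaled background these ranges were 5.63-fold and 3.45-fold, so H3K27ac was not level above background. When the islands were ordered by share ratio and cut into deciles, the median H3K122ac density rose from 98.3 reads per kb in decile 1 to 147 in decile 5 and 381 in decile 10. The H3K27ac medians of the same deciles stayed between 207 and 228 reads per kb, and the background medians between 56.7 and 65 reads per kb. The ratio itself orders these deciles, and with the wider range of H3K122ac a rise of that mark had to appear, so the deciles describe the islands and show nothing beyond that.

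**Figure D2:**
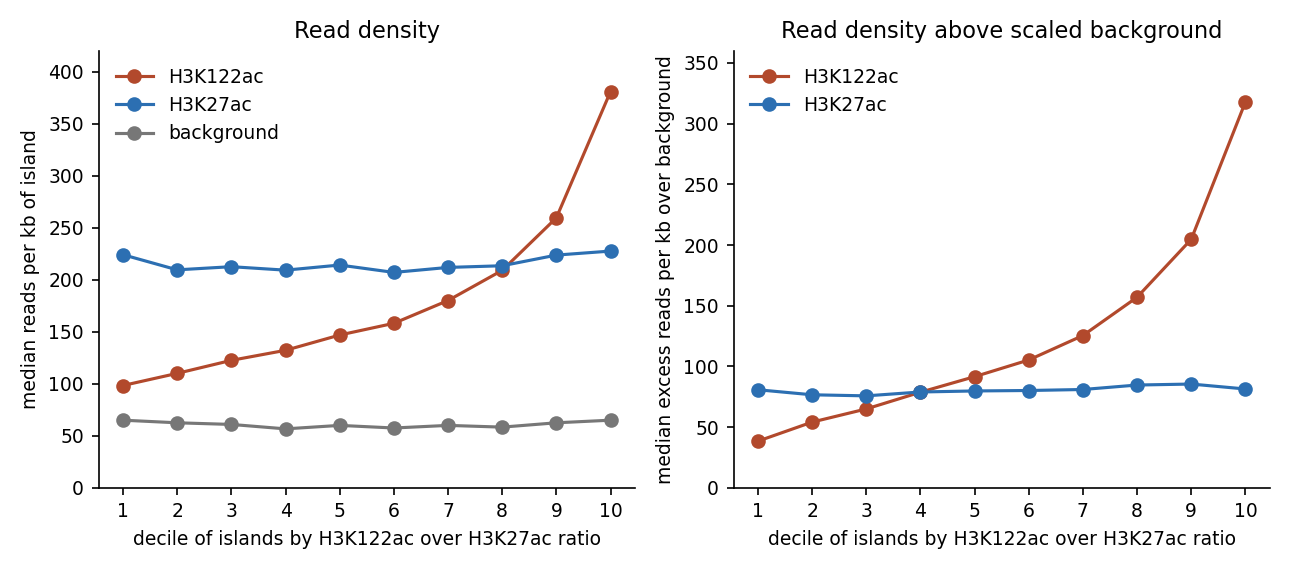
Median reads per kb of island (left) and median excess reads per kb over scaled background (right) in deciles of identical islands ordered by share ratio, lowest to highest. H3K122ac climbs from 98.3 to 381 reads per kb, while H3K27ac stays between 207 and 228 and background between 56.7 and 65.

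Reads at the level of background made up a larger part of H3K27ac than of H3K122ac. The background count times the library ratio equalled a median of 62.4% of the H3K27ac reads of an island (10th to 90th percentile 38.5 to 78.8%) and 33.7% of the H3K122ac reads (15.7 to 58.1%). The median fold over background in the authors' lists was accordingly 2.97 for H3K122ac and 1.60 for H3K27ac on the identical islands, beside 2.78 and 1.49 over all islands on the numbered chromosomes. After subtraction of scaled background, the median excess was 101 reads per kb for H3K122ac and 80.0 reads per kb for H3K27ac. These are reads as counted and not at equal depth, since the library ratio to background was 2.39 times larger for H3K27ac. Across the ratio deciles the median H3K27ac excess still stayed between 75.8 and 85.5 reads per kb, and the H3K122ac excess rose from 38.5 to 318 reads per kb. The share ratio of excess reads had a median of -0.93 on the log2 scale and an SD of 0.94, and across the 4000 islands it kept an order close to that of the ratio of all reads (Spearman's rho 0.91, a description, since the values share their reads).

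The ratio rose with island length over all identical islands. Islands of at most 1000 bp (2120 islands) had a median log2 share ratio of -0.69, and islands of at least 2000 bp (736 islands) one of -0.24, a difference of 0.45 (0.38 to 0.52, combined from the intervals of both medians). The long group had the higher median on 19 of 19 chromosomes, by 0.11 to 0.79. By length class, the median was -0.69 at 200 to 600 bp, -0.69 at 800 to 1000 bp and -0.59 at 1200 to 1400 bp. It was -0.47 at 1600 to 2000 bp, -0.29 at 2200 to 3000 bp, -0.16 at 3200 to 5000 bp and -0.04 in the 44 islands over 5000 bp. The intervals of the 2 shortest classes overlapped, as did those of the 3 longest.

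Identical islands of at least 2000 bp were denser in H3K122ac than those of at most 1000 bp, and not denser in H3K27ac. H3K122ac density was 152 reads per kb on islands of at most 1000 bp and 199 on islands of at least 2000 bp, and H3K27ac density 223 and 214 reads per kb. Background density was 60 and 63.3 reads per kb in these groups. By length class neither mark moved in 1 direction. H3K27ac density was 238 reads per kb at 200 to 600 bp, 200 at 1200 to 1400 bp and 232 over 5000 bp. H3K122ac density was 162, 144 and 237 reads per kb in these classes. Among the 2974 islands with at least 100 reads in each list the log2 difference was 0.20; islands of at most 1000 bp held a median of 103 H3K122ac reads and those of at least 2000 bp 552.5. Between the lower and the upper quartile of background density it was 0.47.

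H3K64ac, which did not enter the choice, met 2325 of the identical islands, 58.1% (56.6 to 59.6%). Over all islands on the numbered chromosomes, H3K64ac met 60.5% of the H3K122ac list and 49.8% of the H3K27ac list, whose islands were longer. Where H3K64ac met an identical island it covered the whole island in 1770 cases and at least 50% of it in 2314. The share with H3K64ac rose with length, from 25.5% at 200 to 600 bp to 71.2% at 1200 to 1400 bp and 44 of 44 islands over 5000 bp, and longer islands have more room to meet another.

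Identical islands with H3K64ac had higher share ratios, though the H3K27ac share was still the larger on most of them. Their median log2 share ratio was -0.40, against -0.80 in the 1675 islands without H3K64ac, a difference of 0.40 (0.36 to 0.44). The difference was positive on 19 of 19 chromosomes, from 0.28 to 0.52, and was 0.47 among islands of 1000 to 2000 bp. H3K122ac density was 178 reads per kb with H3K64ac and 138 without, while H3K27ac density was 216 and 213 reads per kb. Background density was 61 and 61.3 reads per kb, so background moved little with H3K64ac. The islands with and without H3K64ac differed in length, with medians of 1400 and 800 bp. Within every length class up to 3000 bp, H3K27ac was also denser with H3K64ac than without. At 1200 to 1400 bp, H3K27ac density was 206 reads per kb with H3K64ac and 192 without, and H3K122ac density 159 and 113.

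Seen from the share ratio, H3K64ac was more frequent on islands where that ratio was higher. In deciles 1 to 4 of the share ratio, 37.5 to 42.5% of islands met H3K64ac. The share was 57.2% (52.3 to 61.9%) in decile 6, 73.3% (68.7 to 77.4%) in decile 8 and 90.3% (86.9 to 92.8%) in decile 10. Among islands of 1000 to 1400 bp alone it went from 44.1% (36.7 to 51.8%) in decile 1 to 92.6% (85.4 to 96.3%) in decile 10, so the rise was present where length varied little. Where H3K64ac was met on islands of any length, the median H3K64ac fold over background in the authors' list rose from 2.01 in decile 1 to 3.58 in decile 10. Among islands of 1000 to 1400 bp the rise was smaller and not steady, with 2.10 in decile 1, 2.07 in decile 3 and 2.91 in decile 10. Each of these folds is that of the whole H3K64ac island met, or the first where several were met. H3K64ac islands had a median length of 2600 bp on the numbered chromosomes, so the fold can include DNA outside the identical island.

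**Figure D3:**
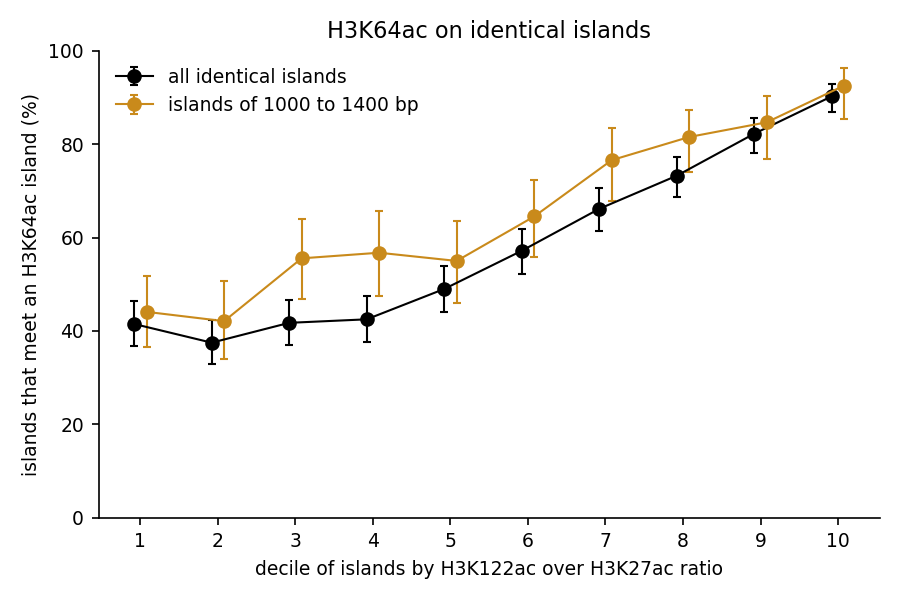
Percent of identical islands that met an H3K64ac island by at least 1 bp (vertical) in deciles of the share ratio (horizontal), for all islands and for islands of 1000 to 1400 bp, with Wilson 95% intervals. The share lies near 40% in deciles 1 to 4 and reaches 90.3% in decile 10 for all islands.

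The relation with length went in opposite directions with and without H3K64ac. Among islands with H3K64ac the median log2 share ratio was -0.50 at up to 1000 bp and -0.20 at 2000 bp or more, a difference of 0.30 (0.22 to 0.38). Among islands without H3K64ac it was -0.77 in the 1342 islands of up to 1000 bp and -1.11 in the 38 islands of 2000 bp or more, a difference of -0.33 (-0.43 to -0.16). Over the length classes without H3K64ac, the median went from -0.75 at 200 to 600 bp to -0.80, -0.93, -0.999 and -1.14 at 2200 to 3000 bp. The last of these classes holds 21 islands, and this split was made after the values were seen. H3K122ac density in the 38 long islands without H3K64ac was 92.8 reads per kb, and their H3K27ac fold in the authors' list was 1.33, both lower than on short islands without H3K64ac, at 143 reads per kb and 1.61.

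**Figure D4:**
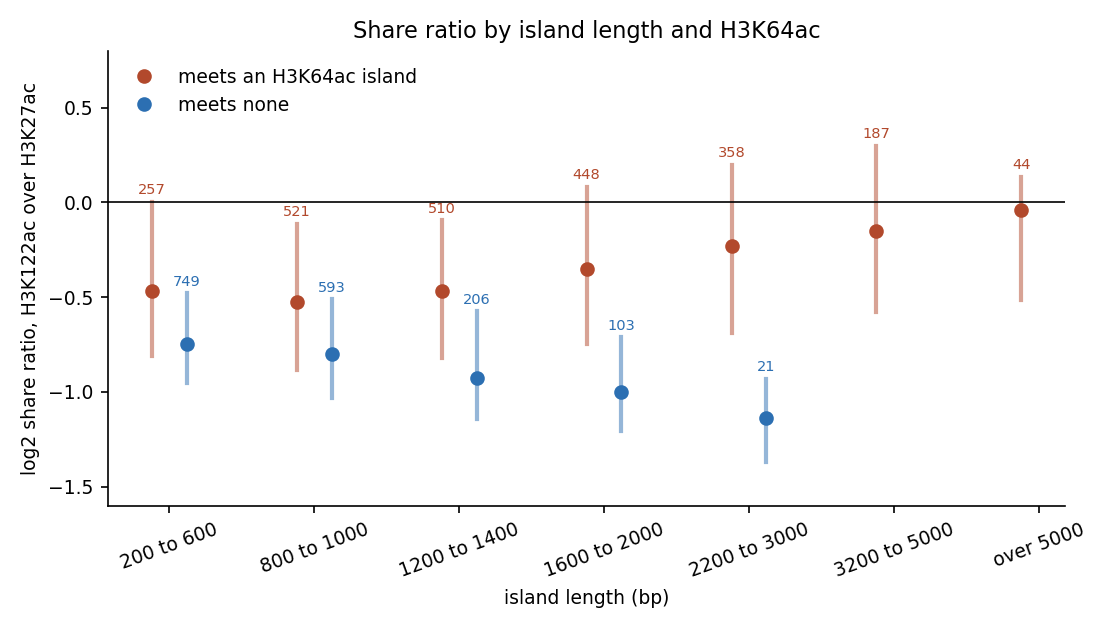
Median log2 share ratio (points) with the lower and upper quartile (bars) by island length, for identical islands that meet an H3K64ac island and for those that meet none; the numbers count islands. The medians with H3K64ac rise to -0.04 in the islands over 5000 bp, those without fall to -1.14 at 2200 to 3000 bp, and a class of fewer than 5 islands is not drawn.

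In 503 of the 4000 islands the H3K64ac list had the same ends as well, so that 3 marks could be compared over the same base pairs. Their median log2 ratio of H3K122ac over H3K27ac was -0.25 (-0.31 to -0.17), higher than in the 4000 as a whole. The median log2 ratio of H3K64ac over H3K122ac was -0.05 (-0.09 to 0.03), an equal share within the interval, and that of H3K64ac over H3K27ac was -0.31 (-0.36 to -0.26). H3K64ac took a share between those of the other marks in 215 of the 503 islands (42.7%; 38.5 to 47.1%). These levels and this count hold for shares of the lists only. The library ratios to background were 0.913 for H3K122ac, 2.19 for H3K27ac and 1.08 for H3K64ac. Scaling by them would move the level of each ratio. Over these 503 islands, Spearman's rho of reads per kb was 0.65 between H3K122ac and H3K64ac, 0.56 between H3K122ac and H3K27ac and 0.48 between H3K27ac and H3K64ac. These correlations describe islands that share position, length and mappability, and they carry no test.

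Background density by itself had little relation to the ratio of all reads. From the lowest to the highest quartile of background, medians of 40 and 81 reads per kb, the median log2 share ratio was -0.57 and -0.63, a difference of -0.05 (-0.11 to 0.02). The sign of this difference was not stable: it was 0.65 with scaled background subtracted, 0.34 among the 1878 islands with a q-value of at most 1e-10 in both lists, and 0.08 among islands of 1000 to 2000 bp. In the same quartiles the median fold over background in the authors' lists went from 4.27 to 2.38 for H3K122ac and from 2.37 to 1.36 for H3K27ac, since background is its divisor. Only 25 identical islands had fewer than 10 background reads, and 1 had none.

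A small group reached a high H3K27ac fold over low background, at a similar density of H3K27ac reads. Background is the divisor of the fold, so choosing by fold favours islands with low background. The H3K27ac fold was 3 or more on 216 identical islands (Wilson 95% interval 4.74 to 6.14%), beside 4.08% of all H3K27ac islands on the numbered chromosomes. Their median background density was 26.5 reads per kb, and that of the other identical islands 62.1. H3K27ac density was 217 and 214 reads per kb in these groups. The H3K27ac excess over scaled background was higher in the group, at 161 reads per kb against 77.4, and so was the H3K122ac fold, at 7.29 against 2.87. The median log2 share ratio of the group was -0.52 (-0.56 to -0.39), beside -0.61 (-0.64 to -0.58) on the others. For H3K122ac, 1955 identical islands (48.9%) reached a fold of 3, against 45.1% of all H3K122ac islands.

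The surroundings of the identical islands varied across the ratio. The median gap to the next H3K27ac island was 2800 bp in decile 1, 3600 to 4800 bp in deciles 2 to 9 and 6300 bp in decile 10, and the median number of other H3K27ac islands within 50 kb was 8 in decile 1 and 5 to 7 in the others. For H3K122ac the median gap was shortest in decile 9, at 4400 bp, and longest in decile 7, at 7200 bp, with no steady trend, and the median number of other islands within 50 kb was 3 in decile 2 and 6 in decile 10. The 18 islands with an H3K122ac share at least 2-fold larger lay a median of 12600 bp from the next H3K27ac island, and the 787 with an H3K27ac share at least 2-fold larger a median of 3200 bp. These gaps were not tested.

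The 8 islands with the highest share ratio, among 3564 with at least 200 reads over both lists and at least 10 background reads, had H3K122ac folds of 7.09 to 19.9 and H3K27ac folds of 1.29 to 3.46. The highest, chr13:76192801-76194400 (mm9, as are all positions), spanned 1600 bp and held 1204 H3K122ac reads, 452 H3K27ac reads and 135 background reads, a log2 share ratio of 1.28 (exact 95% interval 1.13 to 1.44). H3K64ac had the same ends there, with 640 reads. The next, chr9:40538401-40540400, held 985 and 380 reads over 134 background reads, a log2 share ratio of 1.24 (1.07 to 1.42), and shared its ends with an H3K64ac island of 620 reads. In both, H3K27ac was called at a fold of 1.53 or less while H3K122ac exceeded 8.

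The next islands of this group met H3K64ac as well. At chr11:59004401-59006200, H3K122ac had 922 reads and H3K27ac 378, a log2 share ratio of 1.16 (0.98 to 1.33). At chr6:149356801-149358800, H3K122ac density was 672.5 reads per kb and H3K27ac density 281, with a log2 share ratio of 1.13 (0.98 to 1.27). At chr2:117074801-117076400 the reads were 743 and 312, with a ratio of 1.12 (0.93 to 1.32). These 3 islands were 1600 to 2000 bp long, and the intervals of their ratios overlap each other and those of the first pair. The island chr6:40274401-40276600 held 1035 and 449 reads, a ratio of 1.07 (0.91 to 1.24), and chr16:93608001-93608800 held 382 and 166 reads, also 1.07 (0.80 to 1.34). The remaining island, chr4:7464801-7465400, stood apart in its surroundings: it met no H3K64ac island, the next H3K122ac island was 184200 bp away, and its 255 H3K122ac and 106 H3K27ac reads stood over 14 background reads (ratio 1.14, 0.80 to 1.48).

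The 8 islands with the lowest share ratio had more similar folds in both marks, 1.31 to 2.25 for H3K122ac and 1.67 to 2.82 for H3K27ac. The lowest, chr8:60075001-60076200, held 109 H3K122ac reads, 354 H3K27ac reads and 69 background reads, a log2 share ratio of -1.83 (-2.15 to -1.52). At chr9:3992601-3993600 the reads were 91 and 295, also a ratio of -1.83 (-2.18 to -1.48). At chr5:64627801-64629000 they were 92 and 290, with a ratio of -1.79 (-2.14 to -1.44), and this island met H3K64ac at a fold of 1.40. The library scaling adds 1.39 to each ratio, which leaves all 8 negative. H3K27ac thus stayed the higher mark under that scaling, and its fold had to exceed the H3K122ac fold on each of the 8 islands.

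The other low islands were alike in level. The island chr2:67552401-67554400 held 127 H3K122ac and 390 H3K27ac reads (log2 share ratio -1.75, -2.05 to -1.46) and lay 146800 bp from the next H3K122ac island. At chr16:15930201-15931200 the reads were 97 and 296 (-1.74, -2.09 to -1.41), and at chr13:115169001-115169800 they were 85 and 259 (-1.74, -2.11 to -1.38). The latter met H3K64ac at a fold of 1.48. At chr14:103514201-103516400 the reads were 176 and 532 (-1.73, -1.98 to -1.48), and at chr1:185520601-185522000 they were 119 and 358 (-1.72, -2.03 to -1.42). Intervals of all 8 overlap, so the order among them is within counting error. Of these 8 islands 2 met H3K64ac, and of the 8 highest 7 did; the islands were chosen by their ratio, and the difference was not tested.

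The 5 longest identical islands had nearly equal shares of both marks and each met H3K64ac. The island chr9:42663401-42675200, of 11800 bp, held 2448 H3K122ac and 2259 H3K27ac reads, a log2 share ratio of -0.02 (-0.10 to 0.07). The island chr14:32707601-32718000, of 10400 bp, held 2284 and 2404 reads, a ratio of -0.20 (-0.29 to -0.12). The island chr8:129074401-129084400, of 10000 bp, held 2789 and 2510 reads, a ratio of 0.02 (-0.06 to 0.10), and H3K64ac had the same ends with 2441 reads. The intervals of the first and the third hold equal shares. At chr16:29655601-29664600, of 9000 bp, the ratio was 0.14 (0.07 to 0.22) from 2916 and 2409 reads, and at chr7:120324801-120332600, of 7800 bp, it was 0.09 (0.00096 to 0.17) from 2332 and 2004 reads.

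Of the 5 islands with the largest summed share, 4 were among the longest. The fifth, chr11:115473001-115480600, of 7600 bp, took the largest summed share, with 3317 H3K122ac and 2105 H3K27ac reads. Its log2 share ratio of 0.53 (0.45 to 0.60) lay above those of the 5 longest islands, with no overlap of intervals. Its H3K122ac density was 436 reads per kb and its H3K27ac density 277, against 207 to 324 and 191 to 268 reads per kb on the 5 longest.

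**Figure D5:**
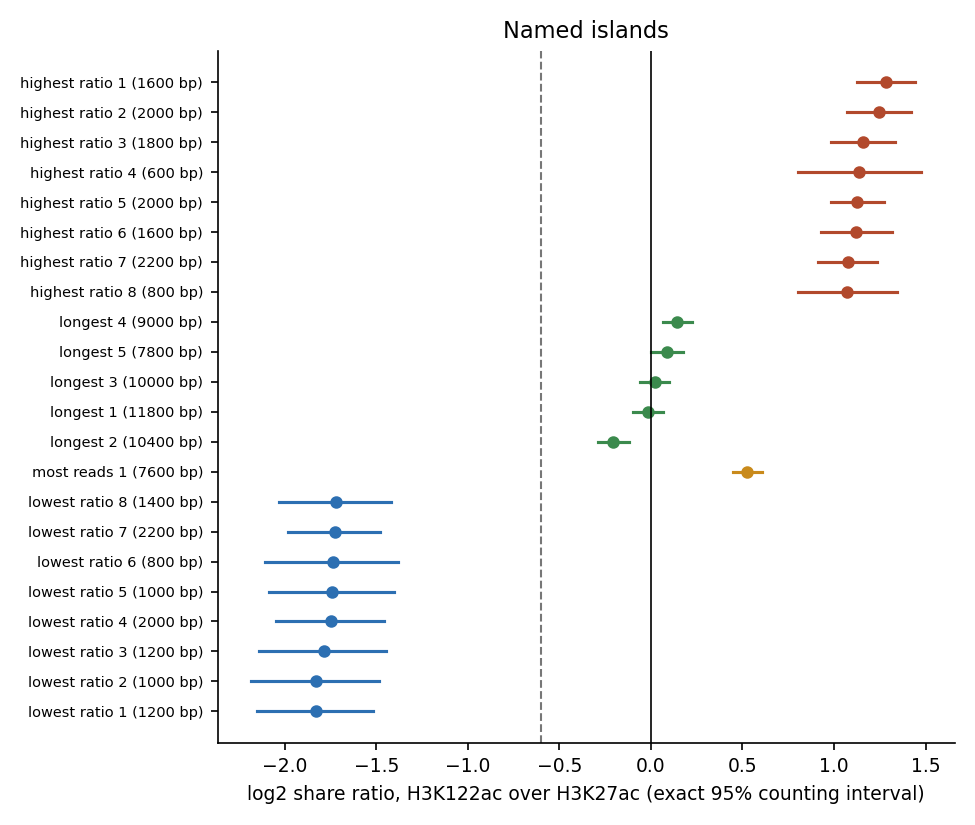
Log2 share ratio (points) and exact 95% counting interval (lines) of the named islands, each labelled by the rule that chose it and its length; the solid line marks equal shares and the dashed line the median of all 4000 identical islands, -0.60. The highest islands lie between 1.07 and 1.28, the longest around 0 and the lowest between -1.83 and -1.72.

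The ratio varied modestly by chromosome. Median log2 share ratios of the 19 numbered chromosomes ran from -0.72 on chromosome 12 (181 islands) to -0.47 on chromosome 7 (178 islands) and -0.48 on chromosome 4 (182 islands). All 19 were below 0 with shares of the lists, and all would lie above 0 with the library scaling, which adds 1.39 to each. The identical islands made up from 3.17% of the H3K122ac islands on chromosome 4 to 5.996% on chromosome 3.

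Islands just outside the rule had median ratios close to or above that of the identical islands. In 4644 pairs 1 end was the same and the other 200 bp away, and their median log2 ratio of shares per kb was -0.51 (-0.53 to -0.49). In 1623 pairs both ends were 200 bp away, with a median of -0.33 (-0.38 to -0.29) and a median H3K122ac length of 1400 bp. In the 18859 pairs where an H3K27ac island lay inside a longer H3K122ac island the median was -0.38, and in the 8960 pairs where an H3K122ac island lay inside a longer H3K27ac island it was -0.63. Borders enter these last values, since the flanks of the longer island count for 1 mark alone.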

How the data were processed

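Islands of mouse embryonic stem cells were taken from 3 deposited lists (H3K122ac, H3K27ac and H3K64ac), each made by the authors from 2 merged libraries. Bowtie 0.12.8, HOMER 4.3, SICER 1.1 and the mouse build mm9 are named, without roles, per the submitters' processing notes. Windows of 200 bp were used, per the labels of each list, at a false discovery rate of 0.01, with gaps of 200 bp in the H3K27ac list and 600 bp in the rest, so a list with the wider gap joins islands that the other splits. The deposited counts are whole ChIP reads and background reads per island, with no normalization by the authors. The deposited p-value and q-value are the authors', and the deposited fold divides the ChIP count by the background count and by 1 library ratio per list, which was recovered from the counts. The identity of the background library is not stated in the labels; its counts were equal in both lists on every identical island.

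Lists were joined on identical ends with pandas 2.3.3 in Python 3.11.15, and positions are 1-based. Intervals are Wilson for percentages, exact binomial for ratios (scipy 1.17.1) and order statistics for medians; all have a level of 95%. The exact intervals cover read counting in 1 island. The others treat islands as independent draws, which neighbours may not be, and none covers the spread between cultures. Intervals of a difference of medians combine those of its 2 medians. With 1 merged list per mark no test was run. The code was tested on simulated counts. Named islands had at least 200 reads over both lists and 10 background reads: the 8 highest and 8 lowest ratios, the 5 longest and the 5 with the largest summed share. Members, classes and lists were chosen with earlier results of these data known. Gene lists were not scored and regions not assigned to genes, since the gene table used here is for another mouse build, and no sequence is printed for the same reason.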

Additional observations from a re-analysis of the deposited data

How the results depend on the processing

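In all 58 alternative values were computed, 4 of them chosen after seeing the data; 22 stayed within the interval of the main value, 2 were counts of islands within 1.5 times the main count (2974 with at least 100 reads in each list and 4091 with chromosome X), 27 moved further and 7 changed sign. Scaling to the reads in identical islands or by the library ratio moves every island by the same amount. The length, background and H3K64ac differences could not change under these scalings, yet they are counted among the 22. No paired analysis was possible because the replicates of each mark were merged before islands were called, and for the same reason no replicate could be left out.

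Scaling set the level of the median log2 share ratio: -0.32 with reads in identical islands as the total, 0.79 with the library ratio (a change of sign), and -0.93 with excess reads. The percent of islands 2-fold higher in H3K122ac was then 2.90, 36.3 and 4.18%, and 2-fold higher in H3K27ac 5.13, 0 and 46.5%. Excess reads also moved the length difference to 0.73, the background difference to 0.65 (a change of sign) and the H3K64ac difference to 0.60. With at least 100 reads in each list the median was -0.44, the percent 2-fold higher in H3K27ac 14.0%, the length difference 0.20, the background difference 0.00347 (a change of sign), the H3K64ac difference 0.32 and the percent with H3K64ac 71.2%. With a q-value of at most 1e-10 in both lists 1878 islands were left, and these values were -0.47, 13.6%, 0.45 (within its interval), 0.34 (a change of sign), 0.47 and 72.8%. With ends within 200 bp there were 10267 islands, and the median was -0.53, the percent 2-fold higher in H3K27ac 18.1%, the background difference 0.00036 (a change of sign), the H3K64ac difference 0.47 and the percent with H3K64ac 63.0%. Among islands of 1000 to 2000 bp the background difference was 0.084 (a change of sign) and the H3K64ac difference 0.47. The length difference was 0.30 with H3K64ac and -0.33 without (a change of sign). The cause of these changes was not tested. The H3K64ac difference stayed positive under every alternative in which it could change. Scaling to the reads in identical islands or by the library ratio leaves it as it is. Apart from the count of islands, chromosome X moved no value out of its interval, and neither did 50% coverage by H3K64ac. At a median of 154 H3K122ac reads, the counting error of a single island hides differences from the median on 1761 of 4000 islands.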

Other observations

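Chromosome X was left out of the main set and held 91 further islands with identical ends, 3.63% of its 2508 H3K122ac islands. Their median log2 share ratio was -0.39 (-0.48 to -0.19), above the -0.60 of the numbered chromosomes, and their median length was 800 bp. H3K122ac density was 163 reads per kb, H3K27ac density 193 and background density 39, against 61.2 background reads per kb on the numbered chromosomes. Median folds were 5.15 for H3K122ac and 2.39 for H3K27ac. H3K64ac met 49 of the 91 islands (53.8%; 43.7 to 63.7%). No island on chromosome Y had identical ends in both lists.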
